A study of Saccharomyces cerevisiae with 12 samples.

Results

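The genes described here make up the inositol and phospholipid synthesis set of Saccharomyces cerevisiae. They are INO1, ITR1, CHO1, PSD1, CHO2, OPI3, INO2, INO4 and OPI1. They were chosen by systematic identifier, with earlier results of these data known. They are 9 of the 7126 gene identifiers in the deposited table, and all 9 passed the filter on low counts. RNA of strain MGD353-13D, grown in rich YPD medium to mid log phase, was depleted of ribosomal RNA and sequenced in 12 libraries, 2 in each of 6 groups. Sdc1_mut_Jhd2_KO carries a point mutation of SDC1 together with a deletion of JHD2. Sdc1_mut carries the point mutation alone, Dpy30_KO lacks the DPY30 motif of SDC1, Sdc1_KO lacks SDC1, and Jhd2_KO lacks JHD2. WT is the wild type. Sdc1 is a subunit of the Set1 complex, which methylates histone H3 at lysine 4, and Jhd2 removes that mark; the title of the series sets out to relate both. Separate cultures or clones are not named for the paired libraries of a strain, so a p-value here reflects the spread of these libraries alone, which may be technical.

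Yeast makes inositol from glucose 6-phosphate with the Ino1 enzyme or takes it up through the Itr1 transporter. Inositol and serine are then joined to CDP-diacylglycerol, and phosphatidylserine is converted by decarboxylation and methylation to phosphatidylethanolamine and phosphatidylcholine. Most of these genes carry an inositol element that binds the activator pair Ino2 and Ino4, and the repressor Opi1, held at the endoplasmic reticulum by phosphatidic acid while inositol is scarce, turns the activators off when inositol is plentiful.

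The upstream sequences of 4 members are shown. They carry matches to the cores of elements by which the set is known to be regulated, and the RNA of each was higher than in WT in at least 2 of the mutants. PSD1 and CHO2 also meet both points, and their sequences are not shown. Each stretch is the 200 bases that end 100 bases before the start codon, taken from the RefSeq genome of the sacCer3 build and not from the strain itself. Capitals mark CATGTG, the core of the inositol element, and GCCGCC, the core of the URS1 element bound by the repressor Ume6, each searched on both strands, so that CACATG and GGCGGC are their matches on the other strand. The stretches lie on the minus strand at chrX:136034-136233 for INO1, chrIV:1445568-1445767 for ITR1, chrX:573036-573235 for OPI3 and chrV:208575-208774 for CHO1.
INO1: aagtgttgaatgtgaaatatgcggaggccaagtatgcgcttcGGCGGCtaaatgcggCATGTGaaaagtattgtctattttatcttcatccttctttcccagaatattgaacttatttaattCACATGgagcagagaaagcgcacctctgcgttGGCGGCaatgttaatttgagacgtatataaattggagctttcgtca
ITR1: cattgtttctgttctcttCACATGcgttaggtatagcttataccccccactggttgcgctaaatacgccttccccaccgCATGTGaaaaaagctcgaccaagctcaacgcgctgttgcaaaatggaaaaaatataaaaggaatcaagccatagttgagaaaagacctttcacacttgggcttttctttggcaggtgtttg
OPI3: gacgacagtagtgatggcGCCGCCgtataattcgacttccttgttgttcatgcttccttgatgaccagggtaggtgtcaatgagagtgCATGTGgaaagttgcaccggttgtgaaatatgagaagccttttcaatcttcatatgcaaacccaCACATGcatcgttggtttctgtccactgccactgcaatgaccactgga
CHO1: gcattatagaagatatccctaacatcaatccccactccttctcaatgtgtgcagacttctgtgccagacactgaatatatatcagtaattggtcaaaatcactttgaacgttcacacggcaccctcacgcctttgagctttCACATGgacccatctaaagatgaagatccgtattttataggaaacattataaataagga
INO1 holds 2 matches of CATGTG and 2 of GCCGCC. ITR1 holds 2 matches of CATGTG, OPI3 holds 2 of CATGTG and 1 of GCCGCC, and CHO1 holds 1 of CATGTG. Of the OPI3 stretch, 141 of the 200 bases lie inside the neighbouring gene YJR074W, so marked matches there are also part of that gene. The CATGTG at 212 to 207 bases before the start codon is among them.

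CATGTG was found in this stretch in 8 of the 9 members, against 344 of the 6001 stretches of the same length upstream of all nuclear protein-coding genes (5.73%). At least 2 matches stood in 5 members, against 0.433% of all stretches. The 5 members are INO1, ITR1, OPI3, PSD1 and INO2, and the 2 matches of INO2 overlap each other. OPI1 was the member without a match, which says only that these letters are not in this window. GCCGCC stood in INO1 and OPI3, 2 of 9 members, against 4.05% of all stretches. These matches are descriptions of letters, and no binding was measured here.

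**Figure D1:**
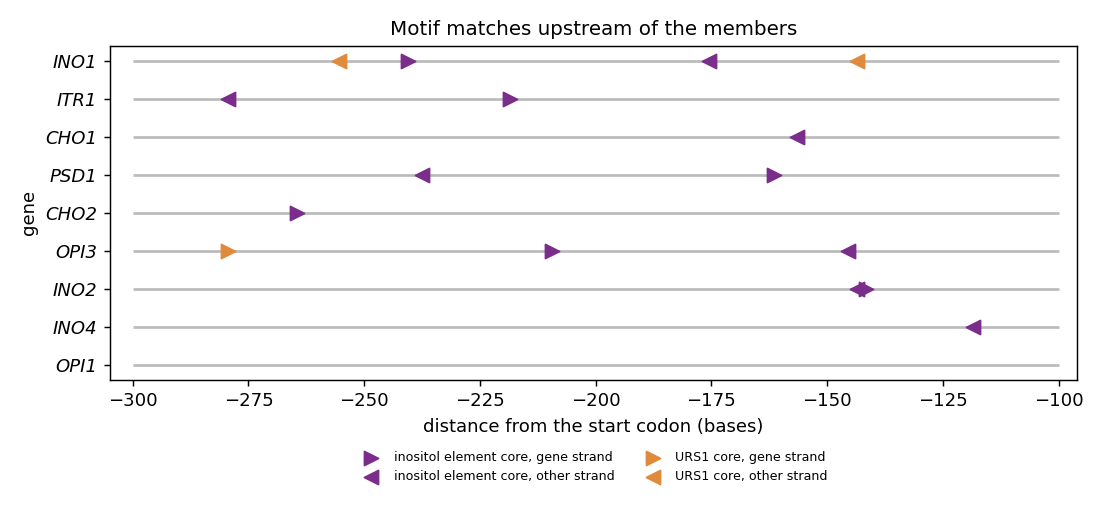
Matches of the inositol element core and the URS1 core in the 200 bases that end 100 bases before the start codon of each member; the x axis is the distance from the start codon in bases, and the arrowhead gives the strand relative to the gene. INO1 holds 4 matches in all and OPI1 none.

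The WT libraries held 24067151 and 26041718 fragments, and those of the mutants 8652878 to 17597006. Each comparison with WT thus also sets deeper libraries against shallower ones. SDC1 had 0 fragments in both Sdc1_KO libraries, and JHD2 had 0 in all 4 libraries of Sdc1_mut_Jhd2_KO and Jhd2_KO. JHD2 RNA was 2.56-fold that of WT in Sdc1_mut, 2.74-fold in Dpy30_KO and 2.92-fold in Sdc1_KO. SDC1 RNA was 1.56-fold that of WT in Sdc1_mut, 1.82-fold in Sdc1_mut_Jhd2_KO and 0.579-fold in Dpy30_KO. Dpy30_KO lacks the part of SDC1 that encodes the motif, and whether the missing bases lower its count was not tested. The 2 Sdc1_KO libraries lay apart for several members, and values without each are given beside the results they move most. Mitochondrially encoded RNAs numbered 9 to 16 fragments per library in Sdc1_mut_Jhd2_KO, 2 to 9 in Sdc1_mut and 8 to 17 in Dpy30_KO, against 48224 to 53234 in Sdc1_KO, 29213 to 37870 in Jhd2_KO and 35130 to 62790 in WT. That loss accompanies every difference of Sdc1_mut_Jhd2_KO, Sdc1_mut or Dpy30_KO from Sdc1_KO, Jhd2_KO or WT, and its part in these results was not tested. Both Sdc1_mut_Jhd2_KO and Sdc1_mut had lost these RNAs, and both Jhd2_KO and WT held them. In bulk RNA without a spike-in, a change in every cell and a change in the share of cells that express a gene cannot be told apart.

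In the authors' FPKM, which compare genes per length, INO1 averaged 86.7 ± 4.42 in Sdc1_mut_Jhd2_KO (SD, n = 2, as for all FPKM here). That was above PSD1 (66.1 ± 0.241), OPI1 (51.5 ± 2.87) and INO2 (22.0 ± 4.03) in the same libraries. In WT, INO1 had the lowest level of the 9 members with 10.1 ± 0.510 FPKM, and INO2 the next with 12.2 ± 0.493. OPI1 followed in WT with 30.5 ± 2.63, PSD1 with 52.0 ± 2.17 and CHO2 with 172 ± 18.6 FPKM. ITR1 (229 ± 0.619), OPI3 (238 ± 18.9), CHO1 (241 ± 6.82) and INO4 (245 ± 22.4) stood close together at the top in WT, and none of these 4 differed from its neighbour in that order beyond the spread of the libraries.

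INO1 (YJL153C, chrX:134332-135933, minus strand), which encodes inositol 3-phosphate synthase, the first and rate-limiting enzyme of inositol synthesis, was higher than in WT in all 5 mutants. It had 176 and 163 CPM (counts scaled to the library size adjusted by TMM) in Sdc1_mut_Jhd2_KO, 52.2 and 52.3 in Sdc1_mut, 80.3 and 78.1 in Dpy30_KO, 26.1 and 48.5 in Sdc1_KO and 39.65 and 43.3 in Jhd2_KO, against 19.0 and 20.9 CPM in WT. Every mutant library lay above both WT libraries, and the 2 Sdc1_mut_Jhd2_KO libraries lay above all others. Only Sdc1_KO overlapped other mutants, and its 2 libraries spanned the Jhd2_KO values. Against WT the log2 fold change was 3.09 ± 0.21 (SE) in Sdc1_mut_Jhd2_KO, an 8.49-fold difference (adjusted p = 2.1e-07, edgeR's quasi-likelihood test with Benjamini-Hochberg adjustment over 6361 genes, as for all adjusted p-values here). In Sdc1_mut it was 1.39 ± 0.20, with an adjusted p of 0.00012. In Dpy30_KO it was 1.99 ± 0.20, with an adjusted p of 7.7e-06.

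In Sdc1_KO, INO1 rose by 0.91 ± 0.20 (adjusted p = 0.0026), with 1.26 without Sdc1_KO replicate 1 and 0.39 without Sdc1_KO replicate 2. In Jhd2_KO, INO1 rose by 1.06 ± 0.21 (adjusted p = 0.027), in libraries that held their mitochondrially encoded RNA. That call ended without either WT or either Jhd2_KO library, where the value ran between 0.98 and 1.12 and the adjusted p between 0.14 and 0.18. INO1 was the single member called in Jhd2_KO, where 1.63% of all genes were called and 0.755% were called higher.

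ITR1 (YDR497C, chrIV:1443713-1445467, minus strand), the main transporter that brings inositol into the cell, had 1524 and 1358 CPM in Sdc1_mut_Jhd2_KO, 1143 and 1104 in Sdc1_mut, 1442 and 1419 in Dpy30_KO, 728 and 833 in Sdc1_KO and 524 and 587 in Jhd2_KO, against 427 and 441 CPM in WT. All mutant libraries were above WT, and the 3 groups that had lost mitochondrially encoded RNA were above the other groups. ITR1 rose by 1.73 ± 0.12 in Sdc1_mut_Jhd2_KO (adjusted p = 2.4e-07), 1.37 ± 0.12 in Sdc1_mut, 1.72 ± 0.12 in Dpy30_KO and 0.85 ± 0.11 in Sdc1_KO (adjusted p = 9.5e-05). In Jhd2_KO its difference from WT was 0.36 ± 0.11 (adjusted p = 0.13). The 95% interval of that difference ran from 0.11 to 0.60, and the gene was called with DESeq2 (0.34, adjusted p = 0.049) and in a fit of only these 2 groups (0.35, adjusted p = 0.027). ITR1 shares 76.5% identity over 1523 bases with its paralog ITR2, under the 95% at which copies are treated as uncertain here.

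**Figure D2:**
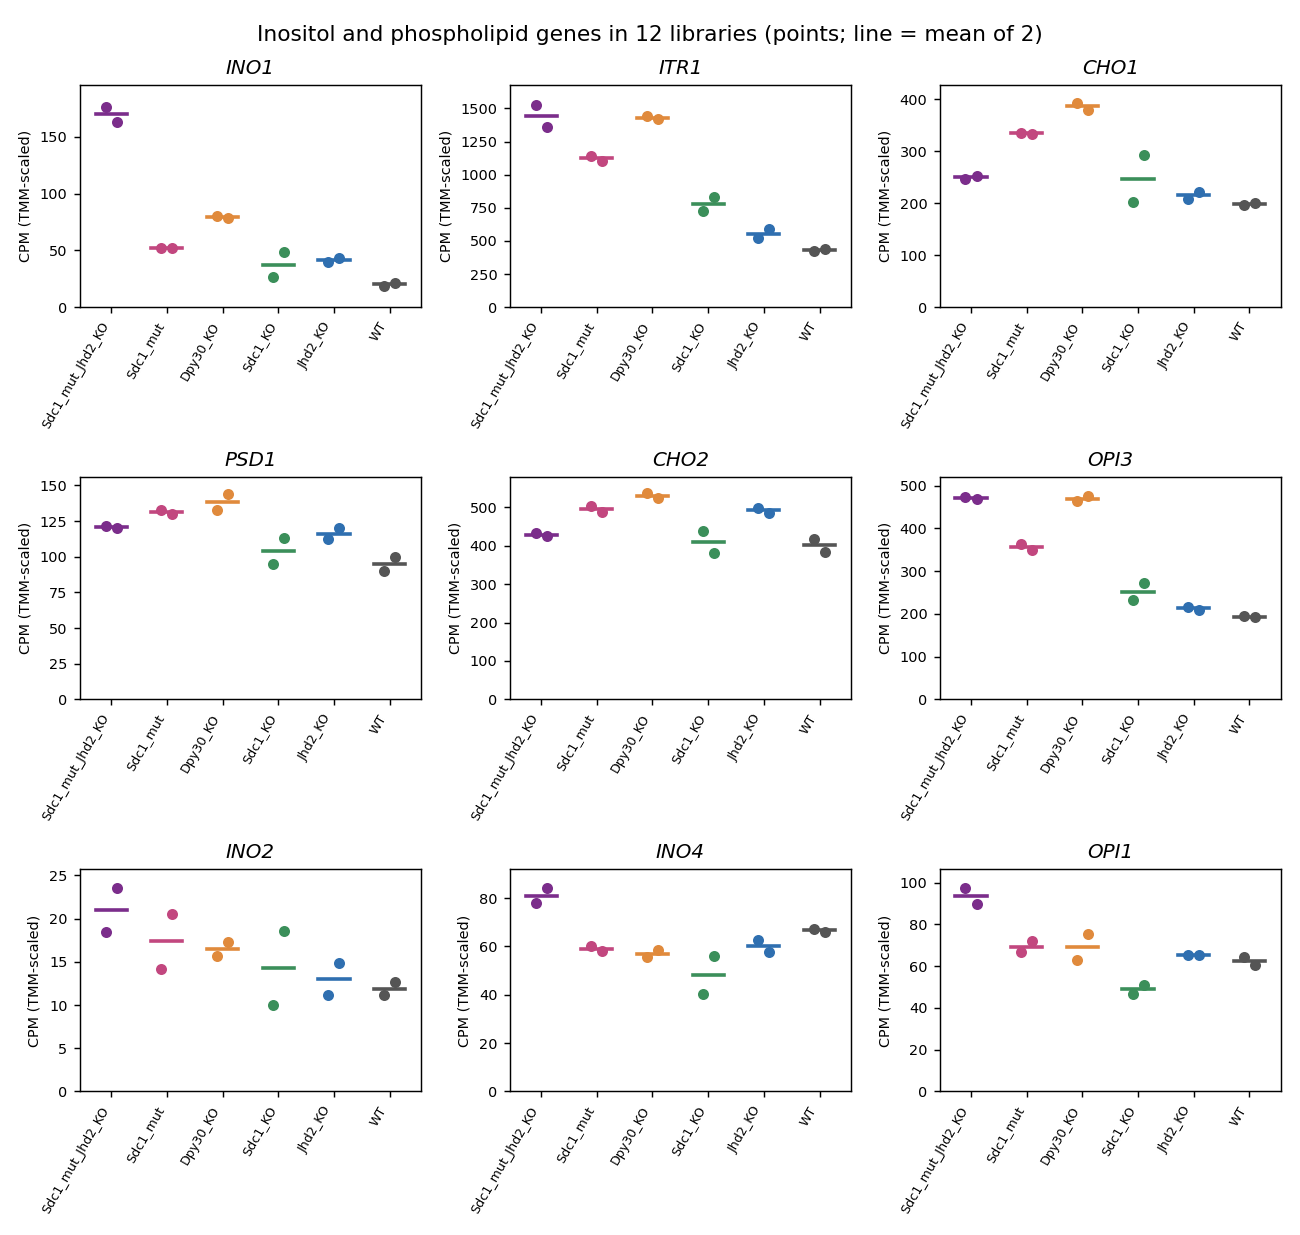
Level of each member in CPM, scaled by TMM, in each of the 12 libraries; points are libraries and lines the mean of the 2 libraries of a group. INO1 stands at 163 to 176 CPM in Sdc1_mut_Jhd2_KO, against 19.0 to 20.9 CPM in WT.

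CHO1, PSD1, CHO2 and OPI3 act in sequence from CDP-diacylglycerol and serine to phosphatidylcholine. CHO1 (YER026C, chrV:207644-208474, minus strand), the phosphatidylserine synthase, had 247 and 253 CPM in Sdc1_mut_Jhd2_KO, 336 and 333 in Sdc1_mut, 393 and 380 in Dpy30_KO, 202 and 293 in Sdc1_KO and 209 and 222 in Jhd2_KO, against 197 and 201 CPM in WT. Sdc1_mut and Dpy30_KO were higher than every library of the other 4 groups. The gene rose by 0.75 ± 0.14 in Sdc1_mut (adjusted p = 0.00065) and by 0.96 ± 0.14 in Dpy30_KO (adjusted p = 0.00011). Its difference from WT was 0.33 ± 0.14 in Sdc1_mut_Jhd2_KO (adjusted p = 0.054) and 0.32 ± 0.14 in Sdc1_KO (adjusted p = 0.072). CHO1 in Sdc1_mut_Jhd2_KO was called with RLE scaling (adjusted p = 0.043), with DESeq2 (adjusted p = 0.033) and in a fit of only the groups compared (adjusted p = 0.007). CHO1 in Sdc1_KO was called without Sdc1_KO replicate 1 (0.53, adjusted p = 0.00022) and stood at 0.02 without Sdc1_KO replicate 2.

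PSD1 (YNL169C, chrXIV:316169-317671, minus strand), the mitochondrial phosphatidylserine decarboxylase, had 121 and 120 CPM in Sdc1_mut_Jhd2_KO, 133 and 130 in Sdc1_mut, 133 and 144 in Dpy30_KO, 94.9 and 113 in Sdc1_KO and 112 and 120 in Jhd2_KO, against 90.1 and 99.9 CPM in WT. Its range over the 12 libraries was narrow beside those of INO1 and ITR1, and Sdc1_KO was the one mutant that overlapped WT. PSD1 was not called in Jhd2_KO, with a difference from WT of 0.29 ± 0.10 (95% interval 0.065 to 0.514, adjusted p = 0.17). PSD1 rose by 0.35 ± 0.10 in Sdc1_mut_Jhd2_KO (adjusted p = 0.011), 0.47 ± 0.10 in Sdc1_mut (adjusted p = 0.0021) and 0.54 ± 0.10 in Dpy30_KO (adjusted p = 0.00084). The first of these calls ended without WT replicate 1 (adjusted p = 0.1) or Sdc1_mut_Jhd2_KO replicate 1 (adjusted p = 0.053).

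CHO2 (YGR157W, chrVII:802440-805049, plus strand), the phosphatidylethanolamine methyltransferase that carries out the first methylation, had 432 and 427 CPM in Sdc1_mut_Jhd2_KO, 505 and 488 in Sdc1_mut, 537 and 524 in Dpy30_KO, 439 and 381 in Sdc1_KO and 498 and 486 in Jhd2_KO, against 418 and 385 CPM in WT. The libraries of Sdc1_mut, Dpy30_KO, Jhd2_KO and Sdc1_mut_Jhd2_KO lay above both WT libraries, and those of Sdc1_mut_Jhd2_KO lay below Sdc1_mut. CHO2 rose by 0.31 ± 0.10 in Sdc1_mut (adjusted p = 0.023) and by 0.40 ± 0.10 in Dpy30_KO (adjusted p = 0.0051). The call in Sdc1_mut ended without WT replicate 2 or either Sdc1_mut library (adjusted p from 0.071 to 0.14). In Sdc1_mut_Jhd2_KO the difference from WT was 0.10 ± 0.10 (adjusted p = 0.42).

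OPI3 (YJR073C, chrX:572315-572935, minus strand), the methyltransferase of the last steps to phosphatidylcholine, had 473 and 468 CPM in Sdc1_mut_Jhd2_KO, 363 and 350 in Sdc1_mut, 463 and 475 in Dpy30_KO, 232 and 272 in Sdc1_KO and 216 and 209 in Jhd2_KO, against 195 and 191 CPM in WT. Each mutant lay above WT in both libraries, and the order of the groups was that of ITR1. OPI3 rose by 1.28 ± 0.10 in Sdc1_mut_Jhd2_KO (adjusted p = 6.9e-07), 0.88 ± 0.10 in Sdc1_mut, 1.28 ± 0.10 in Dpy30_KO and 0.38 ± 0.10 in Sdc1_KO (adjusted p = 0.0062). In Jhd2_KO the difference was 0.14 ± 0.10 (adjusted p = 0.53). In a fit of only the 2 groups, OPI3 in Sdc1_KO was not called (0.35, adjusted p = 0.098). CHO2 and OPI3 thus moved unequally: in Sdc1_mut_Jhd2_KO the later enzyme was called higher than in WT and the earlier was not, a difference between genes that was not tested itself.

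Ino2 and Ino4 are the activator pair. INO2 (YDR123C, chrIV:698554-699468, minus strand) had 18.5 and 23.5 CPM in Sdc1_mut_Jhd2_KO, 14.2 and 20.5 in Sdc1_mut, 15.7 and 17.3 in Dpy30_KO, 9.97 and 18.6 in Sdc1_KO and 11.2 and 14.9 in Jhd2_KO, against 11.2 and 12.7 CPM in WT. The libraries of Sdc1_KO and those of Sdc1_mut lay farthest apart for this gene, and those of WT and of Dpy30_KO lay closest. Sdc1_KO and Jhd2_KO overlapped WT. INO2 rose in Sdc1_mut_Jhd2_KO by 0.82 ± 0.26 (adjusted p = 0.015), a call that ended without WT replicate 1 (0.73, adjusted p = 0.091) or Sdc1_mut_Jhd2_KO replicate 2 (0.63, adjusted p = 0.12). It stood at 0.56 ± 0.26 in Sdc1_mut (adjusted p = 0.092) and at 0.47 ± 0.26 in Dpy30_KO (adjusted p = 0.15). Fits of only the groups compared called it in both, with adjusted p of 0.0088 for Sdc1_mut and 0.015 for Dpy30_KO. In Sdc1_KO its direction rested on the library: it was called higher without Sdc1_KO replicate 1 (0.62, adjusted p = 0.024) and stood at -0.26 without Sdc1_KO replicate 2 (adjusted p = 0.37).

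INO4 (YOL108C, chrXV:111431-111886, minus strand) had 77.8 and 84.3 CPM in Sdc1_mut_Jhd2_KO, 60.2 and 58.0 in Sdc1_mut, 55.6 and 58.4 in Dpy30_KO, 40.4 and 55.9 in Sdc1_KO and 62.65 and 57.7 in Jhd2_KO, against 67.1 and 66.2 CPM in WT. Sdc1_mut_Jhd2_KO was the one mutant above WT, and the other 4 lay below it in both libraries. INO4 fell in Sdc1_KO, with a log2 fold change of -0.47 ± 0.13 (adjusted p = 0.0081, or 0.057 in a fit of only these groups). It was -0.28 without Sdc1_KO replicate 1 and -0.72 without Sdc1_KO replicate 2, called in both. Its differences from WT were 0.28 ± 0.13 in Sdc1_mut_Jhd2_KO (adjusted p = 0.067), -0.17 ± 0.13 in Sdc1_mut, -0.23 ± 0.13 in Dpy30_KO and -0.15 ± 0.13 in Jhd2_KO, the last 3 with an adjusted p of 0.27, 0.15 and 0.6. Fits of only the groups compared called INO4 higher in Sdc1_mut_Jhd2_KO (adjusted p = 0.016) and lower in Dpy30_KO (adjusted p = 0.039).

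OPI1 (YHL020C, chrVIII:66242-67456, minus strand), the repressor gene, had 97.6 and 89.7 CPM in Sdc1_mut_Jhd2_KO, 66.7 and 71.9 in Sdc1_mut, 63.1 and 75.6 in Dpy30_KO, 46.5 and 51.1 in Sdc1_KO and 65.4 and 65.1 in Jhd2_KO, against 64.3 and 60.6 CPM in WT. It was highest in Sdc1_mut_Jhd2_KO and lowest in Sdc1_KO, with both groups clear of all others. OPI1 rose in Sdc1_mut_Jhd2_KO by 0.59 ± 0.10 (adjusted p = 0.00036) and fell in Sdc1_KO, with -0.35 ± 0.10 (adjusted p = 0.013, or 0.086 without WT replicate 1). INO1, ITR1 and OPI3, genes that Opi1 is known to repress, were called higher both in Sdc1_mut_Jhd2_KO, where OPI1 rose, and in Sdc1_KO, where OPI1 fell. The amount and location of Opi1 protein were not measured, and its part in these changes was not tested.

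**Figure D3:**
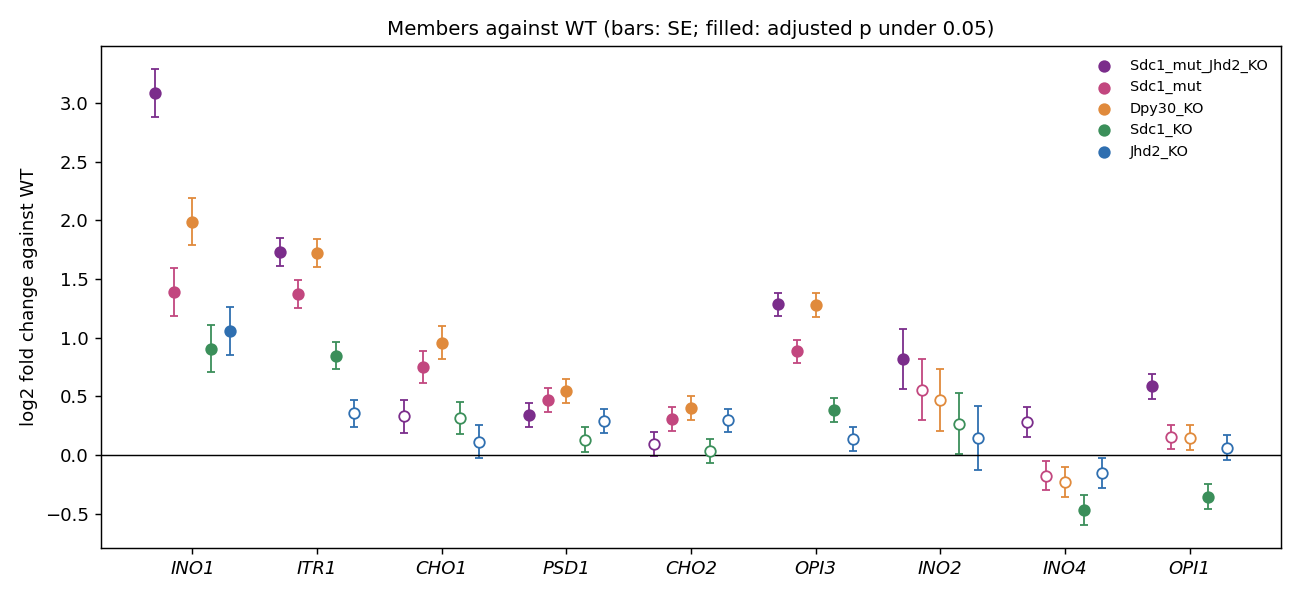
Log2 fold change of each member against WT in the 5 mutants, with standard errors; filled points passed an adjusted p under 0.05. INO1 reaches 3.09 in Sdc1_mut_Jhd2_KO, and INO4 and OPI1 lie below 0 in Sdc1_KO.

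Counted over the set, 6 of 9 members were higher than WT and none lower in Sdc1_mut_Jhd2_KO, where 59.2% of all 6361 genes were called, 29.1% higher and 30.1% lower. In Sdc1_mut 6 were higher and none lower, beside 52.5% of all genes called, 27.9% higher and 24.7% lower. In Dpy30_KO 6 were higher and none lower, beside 52.4% called, 27.2% higher and 25.1% lower. In Sdc1_KO 3 were higher and 2 lower, beside 50.4% called, 28% higher and 22.4% lower. The count of members called in either direction was thus near the background in all 4 mutants of SDC1. Every call was higher in Sdc1_mut_Jhd2_KO, Sdc1_mut and Dpy30_KO, while the split in Sdc1_KO was near that of all genes called. The median log2 fold change of the 9 members was 0.59 in Sdc1_mut_Jhd2_KO, 0.56 in Sdc1_mut, 0.54 in Dpy30_KO, 0.27 in Sdc1_KO and 0.15 in Jhd2_KO. Over all genes it was 0.00, 0.02, 0.02, 0.04 and 0.00 in the same order of mutants. These 5 comparisons share the 2 WT libraries. The members were chosen with earlier results of these data known, so the counts and medians are descriptions of this set and not a test of it.

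Set against the point mutant alone, deletion of JHD2 in addition came with higher INO1 and lower CHO1. In Sdc1_mut_Jhd2_KO against Sdc1_mut, INO1 rose by 1.70 ± 0.20 (adjusted p = 9.4e-05) and remained called in all alternatives run. OPI1 rose by 0.43 ± 0.10 (adjusted p = 0.0074), OPI3 by 0.40 ± 0.10 (adjusted p = 0.0082), INO4 by 0.46 ± 0.13 (adjusted p = 0.015) and ITR1 by 0.36 ± 0.11 (adjusted p = 0.029). CHO1 fell, with -0.42 ± 0.14 (adjusted p = 0.033). Both groups had lost mitochondrially encoded RNA, with 2 to 16 such fragments in each of the 4 libraries. Of all genes 32.5% were called in this comparison, 13.2% higher and 19.4% lower. Without 1 library of either group 2 to 4 of these 9 members were called, and the call of CHO1 ended without any 1 of the 4.

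Against Jhd2_KO, 6 members rose in Sdc1_mut_Jhd2_KO and none fell, beside 58.4% of all genes called, 28.6% higher and 29.8% lower. INO1 rose by 2.03 ± 0.20 (adjusted p = 3.9e-06), ITR1 by 1.38 ± 0.12 and OPI3 by 1.15 ± 0.10. The regulators OPI1 (0.52 ± 0.10, adjusted p = 0.001), INO4 (0.43 ± 0.13, adjusted p = 0.012) and INO2 (0.67 ± 0.27, adjusted p = 0.048) rose too, and the call of INO2 ended without any 1 of the 4 libraries. That of INO4 ended without Jhd2_KO replicate 2 (adjusted p = 0.092) or Sdc1_mut_Jhd2_KO replicate 2 (adjusted p = 0.078). CHO1, PSD1 and CHO2 were not called, with differences of 0.21 ± 0.14, 0.06 ± 0.10 and -0.20 ± 0.10, though CHO1 was in a fit of only these groups (adjusted p = 0.039).

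Whether the difference that came with the point mutation changed without JHD2 was tested as an interaction. It is the log2 difference of Sdc1_mut_Jhd2_KO from Jhd2_KO less that of Sdc1_mut from WT. Both groups with the point mutation had lost mitochondrially encoded RNA, and both groups without it held that RNA. That loss and the point mutation cannot be told apart in this contrast. INO4 was called with a positive interaction of 0.61 ± 0.18 (adjusted p = 0.033) and CHO2 with a negative one of -0.50 ± 0.14 (adjusted p = 0.028). For INO4 the point mutation came with a difference of 0.43 without JHD2 and of -0.17 with JHD2, and for CHO2 with -0.20 without JHD2 and 0.31 with it. These were 2 of 9 members, beside 20.4% of all genes (8.39% positive and 12% negative), and both calls ended without any 1 of the 8 libraries (adjusted p from 0.053 to 0.14). The interaction of INO1 was 0.64 ± 0.28 (95% interval 0.03 to 1.25, adjusted p = 0.13), so a departure from the sum of the 2 single effects on the log2 scale was not called. ITR1 had an interaction of 0.00 ± 0.16 with an interval from -0.35 to 0.35.

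The other interactions were -0.54 ± 0.19 for CHO1 (adjusted p = 0.069), -0.42 ± 0.15 for PSD1 (adjusted p = 0.063), 0.37 ± 0.15 for OPI1 (adjusted p = 0.098), 0.26 ± 0.14 for OPI3 (adjusted p = 0.21) and 0.12 ± 0.38 for INO2 (adjusted p = 0.86). The enzymes CHO1, PSD1 and CHO2 had negative values, while the enzymes INO1 and OPI3 and the 3 regulators had positive ones. Among these only CHO2 and INO4 were called. A fit of only these 4 groups called 6 members, adding INO1 (adjusted p = 0.0013), CHO1 (adjusted p = 0.0016), PSD1 (adjusted p = 0.014) and OPI1 (adjusted p = 0.03). That fit called more genes of every kind, 2130 over all genes in place of 1297.

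**Figure D4:**
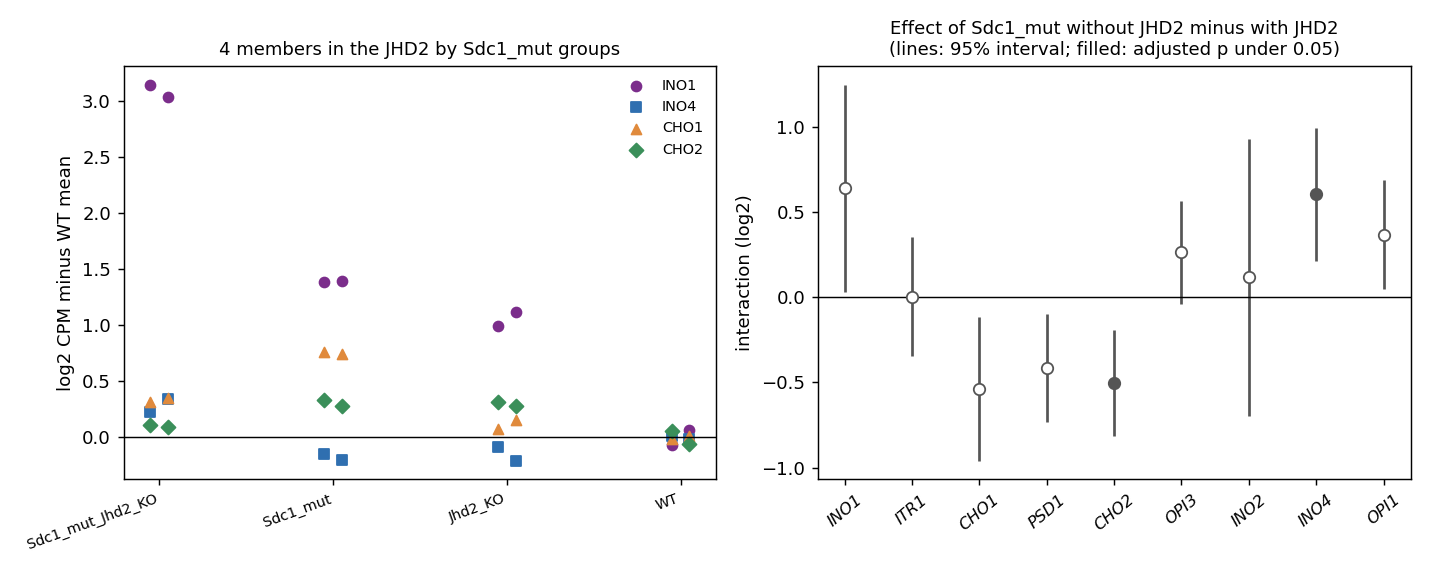
Left, log2 CPM of INO1, INO4, CHO1 and CHO2 less the WT mean in the libraries of the 4 groups that combine the point mutation and the JHD2 deletion. Right, the interaction of each member with its 95% interval, filled where the adjusted p is under 0.05, which are INO4 (0.61) and CHO2 (-0.50).

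The 3 changes of SDC1 were also compared with each other. In Sdc1_KO against Sdc1_mut, 5 members were lower and none higher, beside 21.4% of all genes called and 10.1% lower. They were OPI1 (-0.51 ± 0.11, adjusted p = 0.0049), OPI3 (-0.50 ± 0.10, adjusted p = 0.0036), ITR1 (-0.53 ± 0.11, adjusted p = 0.006), CHO1 (-0.44 ± 0.14, adjusted p = 0.04) and PSD1 (-0.34 ± 0.10, adjusted p = 0.035). The calls of CHO1 and PSD1 ended without either Sdc1_mut library (adjusted p from 0.12 to 0.16) and without Sdc1_KO replicate 1 (-0.20 for CHO1 and -0.22 for PSD1, adjusted p = 0.15 each), and CHO1 stood at -0.73 without Sdc1_KO replicate 2. The call of ITR1 ended without Sdc1_mut replicate 1 (0.059) and that of OPI1 without Sdc1_mut replicate 2 (0.057). INO1, INO2 and INO4 were called lower as well without Sdc1_KO replicate 2 (-1.001, -0.81 and -0.55), and CHO2 without Sdc1_KO replicate 1 (-0.39) and with DESeq2 (-0.29). In Sdc1_KO against Dpy30_KO, 7 were lower, beside 25.2% called and 11.2% lower, among them INO1 (-1.08 ± 0.20, adjusted p = 0.0017), OPI3 (-0.90 ± 0.10) and ITR1 (-0.87 ± 0.11). The value of INO1 there was -0.72 without Sdc1_KO replicate 1 and -1.60 without Sdc1_KO replicate 2. INO2 and INO4 were the members not called there, and both were called lower without Sdc1_KO replicate 2 (-0.73 and -0.50). Without a Dpy30_KO library the calls of CHO2 (either library), OPI1 and PSD1 (replicate 2) ended, with adjusted p from 0.055 to 0.1. In a fit of only the groups compared, in which the spread of the Sdc1_KO libraries weighs more, no member was called against Sdc1_mut (4 had an unadjusted p under 0.05) and 2 were called against Dpy30_KO. Mitochondrially encoded RNA was present in Sdc1_KO and nearly absent from both other mutants, so its presence and the allele cannot be told apart here.

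Between Dpy30_KO and Sdc1_mut no member was called by edgeR, DESeq2 or limma-trend. By edgeR 1 gene of 6361 (0.0157%) was called, SDC1 itself (-1.43 ± 0.12, adjusted p = 0.00047), part of which is deleted in Dpy30_KO. With each tool 3 members had an unadjusted p under 0.05. By edgeR these were INO1 (0.60 ± 0.20), OPI3 (0.40 ± 0.10) and ITR1 (0.35 ± 0.11), each with an adjusted p of 0.7 and all higher in Dpy30_KO. For INO1 the 95% interval ran from 0.18 to 1.02, and it was called where the fit held just Dpy30_KO and Sdc1_mut (adjusted p = 0.022).

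Over the 12 libraries and the 5747 genes that averaged 5 CPM or more, the genes whose log2 CPM was most like that of INO1 were LYS9 of lysine synthesis (Pearson r = 0.973), the polyamine transporter gene TPO2 (0.951), the poly(A) polymerase gene PAP2 (0.946), the cell wall gene PST1 (0.942) and XBP1, a repressor gene (0.939). Among the members OPI3 came first with 0.888, at rank 64, followed by ITR1 with 0.870, at rank 93. CHO2 was the least like INO1 (0.254, rank 2070). These correlations are descriptions over libraries that share 6 strains. TPO2 averaged 118 CPM in Sdc1_mut_Jhd2_KO, 43.6 in Sdc1_mut and 19.7 in Jhd2_KO, against 11.4 CPM in WT.

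The other genes of lipid synthesis and of the control of INO genes, 43 in 6 lists, fell more often than they rose in the 4 mutants of SDC1. In Sdc1_mut_Jhd2_KO 5 of the 43 rose and 22 fell (median -0.27), beside 29.1% of all genes higher and 30.1% lower. In Sdc1_mut 7 rose and 19 fell (median -0.15), beside 27.9% higher and 24.7% lower. In Dpy30_KO 7 rose and 17 fell (median -0.16), beside 27.2% higher and 25.1% lower. In Sdc1_KO 11 rose and 14 fell (median -0.13), beside 28% higher and 22.4% lower, and a fit of only Sdc1_KO and WT called 16 of the 43 in place of 25. The number called in either direction was near that of all genes, from 50.4% to 59.2%. In Jhd2_KO none of the 43 was called by edgeR's test, beside 1.63% of all genes. None was called by limma-trend and 1 by DESeq2. The unadjusted p was under 0.05 in 5, 5 and 4 of the 43 by these tools in the same order, and the median was 0.01. The medians of all genes lay between 0.00 and 0.04 in these comparisons. The lists, too, were chosen with earlier results of these data known, and these counts are descriptions.

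CDS1 makes CDP-diacylglycerol, the substrate that Cho1 joins to serine, and it had the largest mean absolute log2 fold change against WT of the 7 genes in its list. It had 112 and 102.5 CPM in Sdc1_mut_Jhd2_KO, 132.5 and 130.1 in Sdc1_mut, 149 and 145.3 in Dpy30_KO, 70.4 and 83.6 in Sdc1_KO and 56.6 and 58.5 in Jhd2_KO, against 45.5 and 40.2 CPM in WT. All mutant libraries lay above WT. The difference of CDS1 from WT in Jhd2_KO was 0.426 ± 0.105 (adjusted p = 0.062). CDS1 was called there with DESeq2 (0.409, adjusted p = 0.041) and in a fit of only Jhd2_KO and WT (0.42, adjusted p = 0.015). CDS1 rose by 1.32 ± 0.10 in Sdc1_mut_Jhd2_KO (adjusted p = 7.2e-07), 1.61 ± 0.10 in Sdc1_mut, 1.78 ± 0.10 in Dpy30_KO and 0.85 ± 0.10 in Sdc1_KO, and its interaction was -0.72 ± 0.15 (adjusted p = 0.0056). GEP4, the phosphatase of cardiolipin synthesis, rose in Sdc1_mut (0.97 ± 0.18), Dpy30_KO (0.95 ± 0.18) and Sdc1_KO (0.80 ± 0.17). CRD1, cardiolipin synthase, fell in Sdc1_mut_Jhd2_KO (-0.998 ± 0.12), Sdc1_mut (-0.68 ± 0.12) and Dpy30_KO (-0.69 ± 0.12), the groups without mitochondrially encoded RNA. PGS1, which acts before both, fell in the same 3 groups (-0.51 to -0.69 across them, each ± 0.11) and rose in Sdc1_KO (0.46 ± 0.11). In inositol supply, the monophosphatase gene INM1 rose in Sdc1_mut_Jhd2_KO (1.17 ± 0.18), Sdc1_mut (0.64 ± 0.18), Dpy30_KO (0.46 ± 0.18) and Sdc1_KO (0.82 ± 0.18), while its paralog INM2 fell in Sdc1_mut_Jhd2_KO (-0.39 ± 0.10) and Sdc1_KO (-0.28 ± 0.10). GIT1, the permease for glycerophosphoinositol, rose in Dpy30_KO (0.81 ± 0.21) and Sdc1_KO (1.45 ± 0.20). Without 1 library, calls ended for INM1 in Dpy30_KO (any of 4, adjusted p from 0.11 to 0.17), INM1 in Sdc1_mut (WT replicate 1, 0.054, or Sdc1_mut replicate 1, 0.1), INM2 in Sdc1_KO (any but Sdc1_KO replicate 2, 0.06 to 0.15) and GIT1 in Dpy30_KO (WT replicate 2, 0.061, or Dpy30_KO replicate 1, 0.057).

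Of 7 genes that make fatty acids 4 fell in Sdc1_mut_Jhd2_KO, Sdc1_mut and Dpy30_KO each, beside 30.1%, 24.7% and 25.1% of all genes lower in these mutants. None rose in Sdc1_mut_Jhd2_KO, 2 in Sdc1_mut and 1 in Dpy30_KO, so the number called in Sdc1_mut_Jhd2_KO was near the 59.2% of all genes. OLE1, the desaturase, averaged 335 ± 21.5 CPM in Sdc1_mut_Jhd2_KO, 322.5 ± 8.17 in Sdc1_mut and 267 ± 4.97 in Dpy30_KO, against 919 ± 9.54 CPM in WT (SD, n = 2 each). Its log2 fold changes were -1.46 ± 0.29, -1.51 ± 0.29 and -1.78 ± 0.30 in these mutants. In Sdc1_KO it was not called (-0.396 ± 0.285, adjusted p = 0.27), and its 2 libraries there lay far apart (698 ± 436 CPM). ELO1 (-0.346 ± 0.22, adjusted p = 0.21) and ACC1 (-0.409 ± 0.23, adjusted p = 0.16) were not called in Sdc1_KO either. Without Sdc1_KO replicate 2, which leaves 1 library in that group, the values were -1.24 for OLE1, -0.95 for ELO1 and -1.03 for ACC1. ELO1, an elongase of medium chains, fell by 1.99 ± 0.23 in Sdc1_mut_Jhd2_KO, 1.17 ± 0.22 in Sdc1_mut and 1.41 ± 0.23 in Dpy30_KO. ACC1, the carboxylase that commits acetyl-CoA to fatty acids, fell in the same 3 groups, with -0.78 ± 0.23, -0.66 ± 0.23 and -0.59 ± 0.23. Its calls in Sdc1_mut and Dpy30_KO ended without any 1 library of the groups compared (adjusted p from 0.078 to 0.19), and that in Sdc1_mut_Jhd2_KO without any but WT replicate 2 (0.053 to 0.067). ELO2, an elongase of long chains, rose in Sdc1_mut (0.76 ± 0.12), Dpy30_KO (0.64 ± 0.12) and Sdc1_KO (1.81 ± 0.12) and was not called in Sdc1_mut_Jhd2_KO (-0.27 ± 0.12, or -0.43 with an adjusted p of 0.014 without WT replicate 1), with an interaction of -1.06 ± 0.17 (adjusted p = 0.0017).

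Of 9 genes of phosphatidic acid and diacylglycerol, 7 fell and none rose in Sdc1_mut_Jhd2_KO, beside 30.1% of all genes lower and 59.2% called. ALE1, a lysophospholipid acyltransferase, fell by 1.42 ± 0.16 there, 0.75 ± 0.16 in Sdc1_mut and 0.91 ± 0.16 in Dpy30_KO. SLC1, which acylates lysophosphatidic acid, fell by 1.05 ± 0.09, 0.62 ± 0.09 and 0.69 ± 0.09 in the same mutants and rose by 0.32 ± 0.09 in Sdc1_KO. GPT2, a glycerol-3-phosphate acyltransferase, fell in all 4 mutants of SDC1 (-0.49 to -0.62). LPP1, a lipid phosphate phosphatase, rose in Sdc1_KO (0.70 ± 0.20) and fell in Sdc1_mut_Jhd2_KO (-0.87 ± 0.22). In the Kennedy pathway, which makes phosphatidylcholine and phosphatidylethanolamine from free choline and ethanolamine, the cytidyl transferase genes PCT1 (-0.44 to -0.62) and ECT1 (-0.29 to -0.63) fell in all 4 mutants of SDC1. CPT1, the cholinephosphotransferase, rose in Sdc1_mut (0.48 ± 0.09), Dpy30_KO (0.48 ± 0.09) and Sdc1_KO (0.28 ± 0.09) and stood at 0.03 ± 0.09 in Sdc1_mut_Jhd2_KO. EPT1, the ethanolaminephosphotransferase, was called in Sdc1_mut_Jhd2_KO, where it fell (-0.48 ± 0.11). Several calls in Sdc1_KO ended without 1 library, those of LPP1 (WT replicate 2, or Sdc1_KO replicate 1 with 0.40), SLC1 (WT replicate 1), ECT1 (WT replicate 2 or Sdc1_KO replicate 1) and CPT1 (either WT library), with adjusted p from 0.053 to 0.16.

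Among 9 regulators of INO genes, HAC1 and UME6 went opposite ways in Sdc1_mut_Jhd2_KO and in the single mutants of SDC1. HAC1, the transcription factor of the unfolded protein response, had 478 and 459 CPM in Sdc1_mut_Jhd2_KO, 203 and 185 in Sdc1_mut, 177 and 175 in Dpy30_KO, 124 and 105.5 in Sdc1_KO and 202 and 193 in Jhd2_KO, against 237.5 and 229.8 CPM in WT. Sdc1_mut_Jhd2_KO was above WT and all other mutants below it, in every library. HAC1 rose by 1.00 ± 0.10 in Sdc1_mut_Jhd2_KO (adjusted p = 4.8e-06) and fell in Sdc1_mut (-0.27 ± 0.10, adjusted p = 0.037), Dpy30_KO (-0.41 ± 0.10) and Sdc1_KO (-1.02 ± 0.10). Its interaction was 1.52 ± 0.14 (adjusted p = 9.1e-05). UME6, the repressor that binds the URS1 element, rose by 0.40 ± 0.09 in Sdc1_mut_Jhd2_KO and fell in Sdc1_mut (-0.38 ± 0.09), Dpy30_KO (-0.35 ± 0.09) and Sdc1_KO (-0.86 ± 0.09), with an interaction of 0.96 ± 0.13 (adjusted p = 0.00072). DEP1, a subunit of the Rpd3 deacetylase complex, and INO80, a chromatin remodelling ATPase, fell in all 4 mutants of SDC1 (-0.23 to -0.73 for DEP1 and -0.31 to -0.57 for INO80). In Sdc1_mut_Jhd2_KO against Sdc1_mut, both without mitochondrially encoded RNA, HAC1 rose by 1.27 ± 0.10 and UME6 by 0.78 ± 0.09. Without 1 library, calls against WT ended for HAC1 in Sdc1_mut (any of 4, adjusted p from 0.058 to 0.24), UME6 in Dpy30_KO (WT replicate 1, 0.072, or Dpy30_KO replicate 2, 0.054), DEP1 in Sdc1_mut_Jhd2_KO (any of 4, 0.1 to 0.14) and INO80 in Sdc1_mut_Jhd2_KO (any but Sdc1_mut_Jhd2_KO replicate 1, 0.063 to 0.25).

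**Figure D5:**
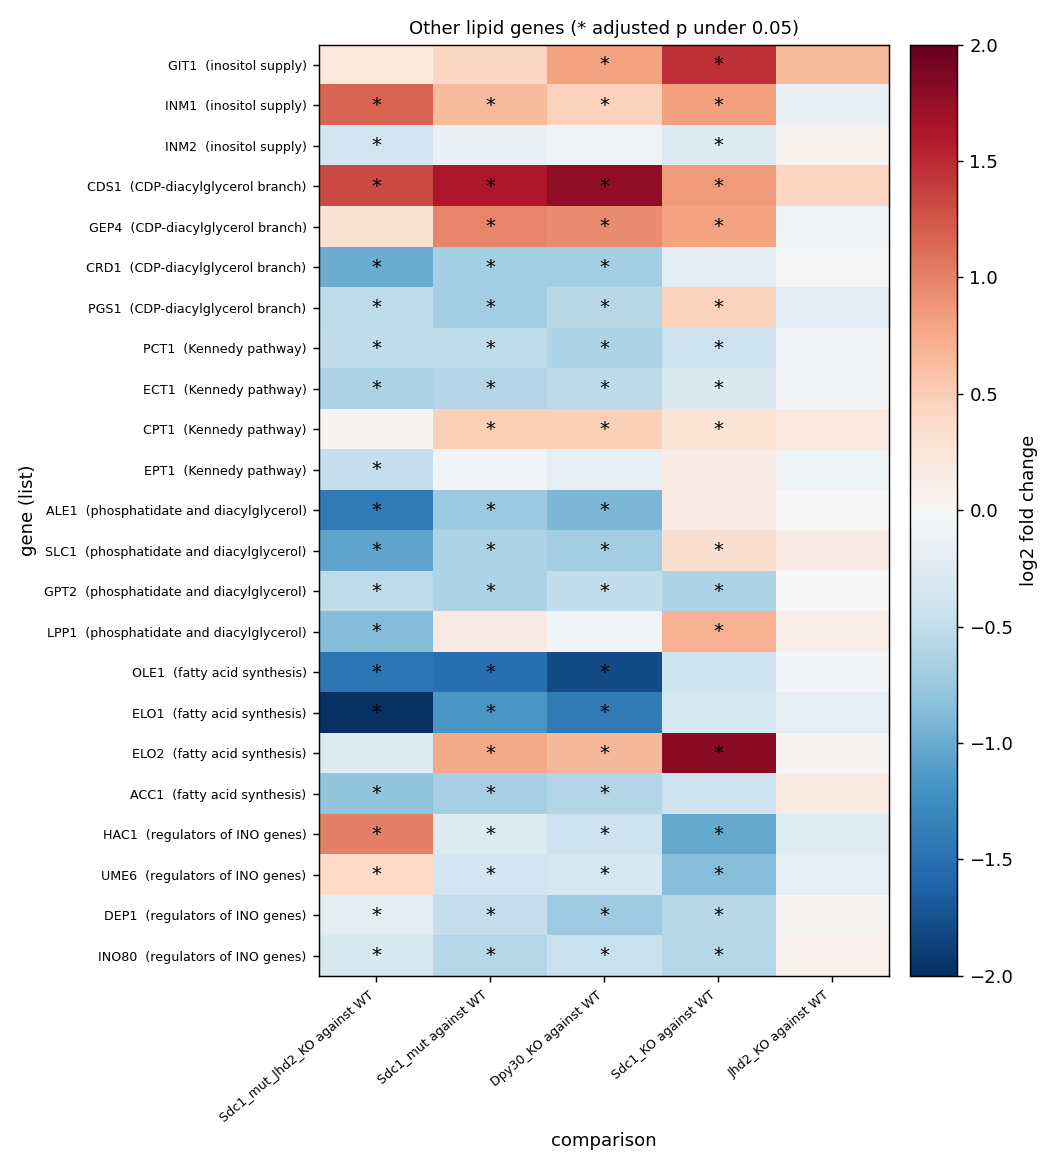
Log2 fold change against WT of the named genes of 6 lists of lipid genes and regulators in the 5 mutants; the colour scale runs from -2 to 2 and a star marks an adjusted p under 0.05. CDS1 is higher in 4 mutants, OLE1 and ELO1 are lower in 3, and HAC1 is higher in Sdc1_mut_Jhd2_KO and lower in 3 mutants.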

How the data were processed

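Total RNA was measured in 12 libraries, 2 in each of 6 groups, taken from the sample titles. Per the labels, ribosomal RNA was depleted and directional libraries were made. Per the submitters' processing notes, bcl2fastq 2.17.1.14, TopHat and Cufflinks were used with the build sacCer3; strand setting, multiply mapped reads and annotation are not given in the sources used here. The deposited table gives expected counts of fragments per identifier and library, 97.8% of them whole numbers. The authors' FPKM in the same table, scaled by length and library, served only to compare levels between genes.

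Expected counts were rounded. Of 7126 identifiers, 14 marked as too deep, at 0 in every library, were left out, and 6046 matched the RefSeq annotation by locus tag and 106 by symbol. No member overlaps an annotated gene by at least 10% of its length or has a copy with 95% identity over 50% of its length. Identifiers without a match (960) could not be checked. A single fit in edgeR 4.0.16 (R 4.3.3; quasi-likelihood test, TMM scaling, default filter) of all 12 libraries held 6 groups and 6361 genes, with a common coefficient of variation of 10.2%. Spread was pooled over groups. Each of 11 comparisons was a contrast, adjusted by Benjamini-Hochberg over all genes, called at an adjusted p under 0.05. The script was tested on simulated data. Alternatives were RLE scaling, DESeq2 1.42.0, limma-trend (limma 3.58.1), no filter, a replicate block, only the groups compared, and leaving out each library. The text names all members, up to 4 called genes per list with the largest mean absolute change against WT, and the 5 genes most like INO1. Members and lists were chosen with earlier results of these data known.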

Additional observations from a re-analysis of the deposited data

Results flagged for a closer look

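For 2 members the difference that came with the point mutation was unequal without and with JHD2 in edgeR's quasi-likelihood test of the interaction. These were 2 of 9 members, beside 20.4% of all genes called in that test, so the share was near the background. Both groups with the point mutation had lost mitochondrially encoded RNA and both groups without it held that RNA. That loss and the point mutation cannot be told apart here. INO4 had an interaction of 0.605 on the log2 scale, with 77.8 and 84.3 CPM in Sdc1_mut_Jhd2_KO and 62.65 and 57.7 CPM in Jhd2_KO, and with 60.2 and 58.0 CPM in Sdc1_mut and 67.1 and 66.2 CPM in WT. CHO2 had an interaction of -0.503, with 432 and 427 CPM in Sdc1_mut_Jhd2_KO and 498 and 486 CPM in Jhd2_KO, and with 505 and 488 CPM in Sdc1_mut and 418 and 385 CPM in WT. Without any 1 of the 8 libraries neither call was left, with adjusted p from 0.06 to 0.14 for INO4 and from 0.053 to 0.096 for CHO2. With fewer than 4 libraries in a group, no library could be examined as standing apart from its group.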

How the results depend on the processing

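No member's called value changed sign in any alternative run. Of the 99 values of members in 11 comparisons, 99 kept their side of the threshold without a filter and 99 with limma-trend, 98 with RLE scaling, 96 with DESeq2 and 95 with a replicate block. A fit of only the groups compared left 75 on their side, with 12 calls lost and 12 gained. There the number of members called was 3 in Sdc1_KO against WT, 2 in Jhd2_KO against WT, 0 in Sdc1_KO against Sdc1_mut (4 at an unadjusted p under 0.05), 2 in Sdc1_KO against Dpy30_KO, 1 in Dpy30_KO against Sdc1_mut and 6 in the interaction. DESeq2 called 2 in Jhd2_KO against WT. Leaving out a library left 365 of 432 values on their side, with 59 calls lost and 8 gained; members called then numbered 0 in Jhd2_KO against WT (2 to 3 at an unadjusted p under 0.05), 4 to 6 in Sdc1_mut_Jhd2_KO against WT, 2 to 4 in Sdc1_mut_Jhd2_KO against Sdc1_mut, 4 to 5 in Sdc1_mut_Jhd2_KO against Jhd2_KO, 2 to 8 in Sdc1_KO against Sdc1_mut, 4 to 9 in Sdc1_KO against Dpy30_KO and 0 in the interaction (3 to 5 unadjusted). Over all genes, Jhd2_KO against WT gave 104 calls, 270 with DESeq2, 164 with the replicate block, 623 in a fit of only those groups and 5 to 26 without 1 library. That fit gave 2036 in place of 3208 for Sdc1_KO against WT, 454 in place of 1360 for Sdc1_KO against Sdc1_mut, 500 in place of 1603 for Sdc1_KO against Dpy30_KO, 17 in place of 1 for Dpy30_KO against Sdc1_mut (2 with limma-trend, 3 with DESeq2, 1 to 2 without 1 library) and 2130 in place of 1297 for the interaction. Without 1 library there were 1100 to 1450 in place of 2069 calls in Sdc1_mut_Jhd2_KO against Sdc1_mut, 646 to 2142 in Sdc1_KO against Sdc1_mut, 804 to 2236 in Sdc1_KO against Dpy30_KO and 580 to 1068 in the interaction. Among the other lipid genes and regulators named, calls against WT also ended for INM2, ECT1, CPT1 and SLC1 in Sdc1_KO in a fit of only the groups compared (adjusted p from 0.081 to 0.14), CPT1 there with DESeq2 (0.064), INM1 in Dpy30_KO with RLE scaling (0.057) and DESeq2 (0.062), ACC1 in Dpy30_KO with limma-trend (0.053) and DEP1 in Sdc1_mut_Jhd2_KO with each of these 4 (0.05 to 0.086). RLE and DESeq2 scaling moved the median of all genes by at most 0.041. The replicate numbers were not treated as pairs: the deviations of same-numbered libraries correlated between -0.131 and 0.156 over 15 pairs of groups (median -0.005). With the replicate block 7 members were called in each of Sdc1_mut_Jhd2_KO, Sdc1_mut and Dpy30_KO against WT, 5 in Sdc1_KO, 1 in Jhd2_KO and 3 in the interaction. The calls gained were CHO1 in Sdc1_mut_Jhd2_KO (adjusted p = 0.048), INO2 in Sdc1_mut (0.026) and Dpy30_KO (0.04) and PSD1 in the interaction (0.043); ELO2 was called lower in Sdc1_mut_Jhd2_KO (-0.27, 0.048). The fewest fragments of a member in a library were 97, for INO2 in Jhd2_KO replicate 1, and each group has 2 libraries.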
